A study of Mus musculus with 5 samples.

Results

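The wells described are single sorted cells of mouse small intestinal organoids that were rich in goblet cell transcripts, chiefly that of Tff3. They were chosen by a share: a well belonged when Tff3, Muc2, Spink4, Fcgbp, Agr2 and Zg16 together held at least 0.3% of its unique molecular identifiers (UMIs, tags that mark single captured mRNA molecules). Of the 971 wells kept in 3 libraries at 1000 UMIs or more, 142 met this rule, and 829 served as the other wells. The whole series holds 1701 kept wells in 5 libraries. The 142 comprised 69 of 318 wells of Lkb1 -/- organoids from the library whose title carries the mark Bud, 39 of 351 wells of Lkb1 +/- organoids (het) and 34 of 302 wells of organoids of WT genotype. All 3 cultures were small intestinal organoids grown with Egf, R-spondin1 and Noggin, dissociated with TrypLE, sorted into 384-well plates and sequenced by SORT-seq, a plate method that captures mRNA by its poly(A) tail and counts 3′ tags. The labels do not explain Bud, and how Lkb1 was edited, how many lines were used and the animals' age are not given in the sources used here. Each genotype was 1 plate, so there were no replicates and no test of genotype was possible. Intervals in brackets are 95% intervals that cover counting error only.

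Goblet cells secrete the gel of intestinal mucus, which is built mainly from the mucin Muc2 and carries the trefoil peptide Tff3, the IgG Fc binding protein Fcgbp and the lectin-like Zg16. They arise in the crypt from progenitors that escape Notch signalling and switch on the transcription factor Atoh1, and they share this secretory origin with Paneth cells, which release lysozyme (Lyz1) and defensins, and with enteroendocrine cells, whose progenitors transiently express Neurog3. Spdef and Klf4 act later in goblet maturation, and the disulfide isomerase Agr2 is needed for Muc2 production. LKB1, the kinase encoded by Stk11, activates AMPK and related kinases.

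The wells are divided further on by Lyz1 and Neurog3, and Muc2 and Fcgbp are read out across that division, so the promoter windows of these 4 genes are shown. They run from 250 bases before to 50 bases after the start of the gene, read 5′ to 3′ on the gene's strand in the RefSeq table for GRCm38.p6, and capitals mark the palindromic E-box CAGCTG, a word of the kind that Atoh1 and Neurog3 bind as basic helix-loop-helix factors. The windows lie at chr7:141690090-141690389 on the forward strand (Muc2), chr7:28070986-28071285 on the forward strand (Fcgbp), chr10:117292819-117293118 on the reverse strand (Lyz1) and chr10:62132840-62133139 on the forward strand (Neurog3).
Muc2: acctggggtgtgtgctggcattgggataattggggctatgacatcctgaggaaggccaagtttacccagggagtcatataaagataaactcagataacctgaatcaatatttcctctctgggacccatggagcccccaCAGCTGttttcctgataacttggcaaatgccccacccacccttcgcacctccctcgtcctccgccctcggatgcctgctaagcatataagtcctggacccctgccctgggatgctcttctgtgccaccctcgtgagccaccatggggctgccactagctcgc
Fcgbp: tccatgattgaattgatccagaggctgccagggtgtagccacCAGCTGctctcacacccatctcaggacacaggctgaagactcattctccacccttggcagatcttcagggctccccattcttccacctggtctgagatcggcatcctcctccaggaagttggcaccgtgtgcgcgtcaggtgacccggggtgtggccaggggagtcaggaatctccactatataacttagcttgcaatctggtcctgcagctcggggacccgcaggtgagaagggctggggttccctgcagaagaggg
Lyz1: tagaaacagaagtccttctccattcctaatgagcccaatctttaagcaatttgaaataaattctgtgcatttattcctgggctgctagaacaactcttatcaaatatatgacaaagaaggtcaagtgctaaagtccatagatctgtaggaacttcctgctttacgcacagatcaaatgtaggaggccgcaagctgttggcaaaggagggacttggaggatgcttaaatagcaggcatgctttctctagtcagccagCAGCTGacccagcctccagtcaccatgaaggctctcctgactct
Neurog3: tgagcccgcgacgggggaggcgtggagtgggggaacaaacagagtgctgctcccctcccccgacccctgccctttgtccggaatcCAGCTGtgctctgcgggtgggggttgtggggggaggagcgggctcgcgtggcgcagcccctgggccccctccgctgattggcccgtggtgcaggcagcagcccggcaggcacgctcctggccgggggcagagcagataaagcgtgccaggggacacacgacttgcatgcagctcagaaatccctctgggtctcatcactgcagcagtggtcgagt
The E-box begins 112 bases before the start in Muc2, 208 before it in Fcgbp and 165 before it in Neurog3, and at transcribed base 7 in Lyz1. Each of the 4 windows holds it 1 time. It occurs in 16.3% of the 32851 promoter windows in the table, searched on both strands, and it is not in the windows of Agr2, Atoh1, Spdef or Reg4. The Klf4 window holds it 247 bases before the start, and Tff3, Spink4 and Zg16 are named only. A match is a description of the letters and says nothing of binding.

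The label goblet held only in part. The trefoil peptide Tff3 was the most abundant of the 6 rule genes in 58 of 69 Bud, 36 of 39 het and 29 of 34 WT wells, whereas 3 or more UMIs of Muc2 were read in 3 of 69 Bud, 9 of 39 het and 4 of 34 WT wells. Zg16 rested on 1 well per library, which gave 99.3% of its Tff3-rich UMIs in Bud, 88.3% in het and every one of the 86 in WT. The same well in each library had the highest share of rule genes: 14.8% of 8395 UMIs in Bud, 15.3% of 8741 UMIs in het and 10.1% of 20904 UMIs in WT. In Bud that well held 277 UMIs of Tff3, 401 of Muc2, 302 of Fcgbp and 138 of Zg16. Its counterpart in het held 272 of Tff3, 278 of Muc2, 528 of Fcgbp and 128 of Zg16, and the WT one 751, 219, 796 and 86 UMIs of these genes in the same order. Across Tff3-rich wells the median was 48 UMIs of Tff3 in Bud, 60 in het and 34.5 in WT, and 0 of Muc2 in all 3. Lyz1 at 3 or more UMIs was found in 27 Bud, 17 het and 16 WT wells, and Neurog3 in 24, 9 and 7. The wells are therefore called Tff3-rich secretory wells, after their leading gene, and are given no cell type name.

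The values of the rule genes only describe the choice. In Tff3-rich wells Tff3 stood at 12506 CPM (counts per 1000000 UMIs) in Bud, 14606 CPM in het and 8771 CPM in WT, and in the other wells at 114, 82.1 and 90.5 CPM in the same order. Spink4, a Kazal-type peptide of goblet cells, stood at 3236 CPM in Bud, 3203 CPM in het and 1676 CPM in WT. Fcgbp stood at 2324, 8666 and 6501 CPM, Muc2 at 1197, 2345 and 1012 CPM, Agr2 at 685, 1677 and 1067 CPM and Zg16 at 370.5, 477 and 336 CPM in Bud, het and WT. The chosen wells held 87.8% of all rule-gene UMIs of their library in Bud, 91.4% in het and 87.6% in WT. Agr2 was the least restricted of the 6: with 109 CPM in Bud, 62.3 CPM in het and 35.7 CPM in WT, it was also read in the other wells, where 3 or more UMIs occurred in 54 of 249 Bud, 29 of 312 het and 10 of 268 WT wells.

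The threshold fell in a sparse range. The median share of rule genes was 1.88% in Bud, 2.38% in het and 1.13% in WT Tff3-rich wells, and 0.0185%, 0.0144% and 0.0102% in the other wells. The lowest shares inside were 0.309% in Bud, 0.329% in het and 0.322% in WT, and the highest outside were 0.270% in Bud, 0.288% in het and 0.294% in WT. Between 0.3% and 0.6% lay 7 Bud, 5 het and 7 WT wells.

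**Figure D1:**
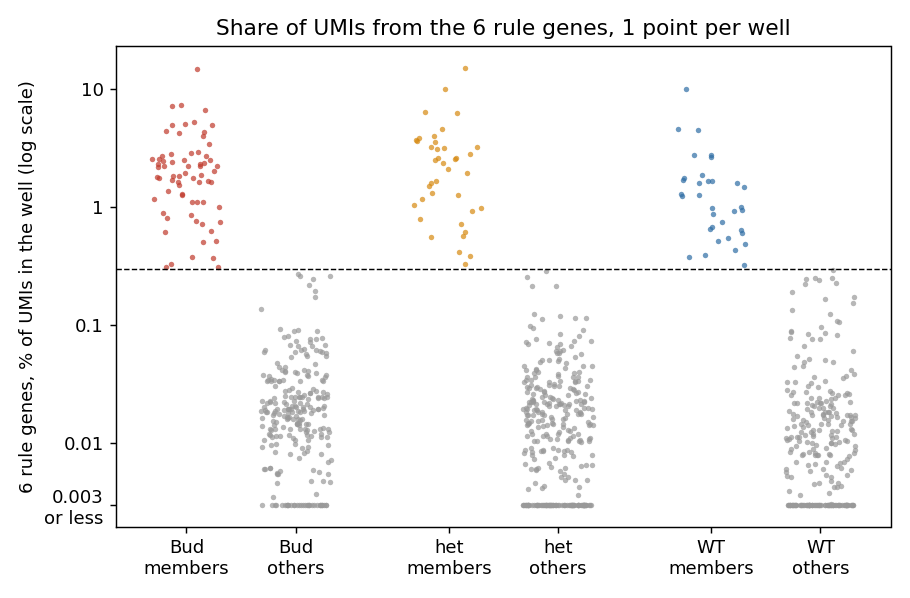
Share of UMIs from the 6 rule genes in each kept well of the 3 libraries (vertical log axis, percent; shares of 0.003% or less are drawn at the bottom), Tff3-rich wells in colour and the other wells in grey. The dashed line is the 0.3% rule; the highest shares were 14.8% in Bud, 15.3% in het and 10.1% in WT.

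Tff3-rich wells made up 21.7% of kept wells in Bud (17.3% to 26.6%), 11.1% in het (8.02% to 14.9%) and 11.3% in WT (7.92% to 15.4%). The Bud interval does not overlap those of het and WT, but the spread between plates of 1 genotype was not measured. Part of the Bud excess lay in shallow wells: 34 of its 69 Tff3-rich wells held under 3000 UMIs (49.3%), against 11 of 39 in het (28.2%) and 13 of 34 in WT (38.2%), while 8.84% of the other wells in Bud, 18.6% in het and 14.2% in WT were that shallow. With at least 3000 UMIs required, the share was 13.4% in Bud, 9.93% in het and 8.37% in WT. Choosing wells after thinning each to 1000 UMIs gave 21.4%, 11.7% and 11.9%. With Tff3 left out of the rule, an alternative chosen after seeing the data, 12.6% of wells remained in Bud, 8.26% in het and 6.62% in WT. Wells with over 2% of UMIs from Kcnq1ot1, a nuclear long noncoding RNA used as a quality mark in plate data, were 24.6% of Tff3-rich wells in Bud, 7.69% in het and 2.94% in WT, and 10.4%, 18.3% and 7.84% of the other wells. Without them the share was 18.9% in Bud, 12.4% in het and 11.8% in WT. The part of depth and of Kcnq1ot1-rich wells in the Bud excess was not tested further.

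The 3 plates held 4199196 UMIs in Bud, 4395349 in het and 4035219 in WT kept wells, of which the Tff3-rich wells had 375184, 304053 and 255963. Their median well was shallower than the others, with 3079 UMIs and 1482 genes in Bud, 6000 UMIs and 2388 genes in het and 4216 UMIs and 2074 genes in WT, against 14475, 11959 and 13708.5 UMIs in the other wells. No Tff3-rich well exceeded 36118 UMIs, and no doublet caller was run on these sorted wells. All 3 plates use the same 384 well names, so a well name does not identify a cell between libraries. Stk11, the edited gene, was read at 11.7 CPM in the whole Bud library, 14.1 CPM in het and 20.6 CPM in WT, and in Tff3-rich wells only 2, 4 and 5 UMIs of it were counted. As a 3′ tag need not overlap the edited site, these counts are no check of the genotype. Immune, mesenchymal and endothelial marker lists were at or near 0: over 17 genes, the Tff3-rich wells held 4 UMIs in Bud, 5 in het and 0 in WT.

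Outside the rule genes, the transcription factors of goblet differentiation were uniformly higher in Tff3-rich wells than in other wells of the same plate. A gene was counted as higher or lower when measured with at least 10 UMIs over both sets of wells, with a CPM ratio of at least 1.5 and a counting interval that excludes 1. Since all these genes come from wells chosen by their transcripts, the counts are descriptions and no test was made. Of 10118 genes measured in all 3 libraries, 285 were higher in all 3 (2.82%) and 246 lower in all 3 (2.43%). All 9 measured goblet transcription factors were among the 285, as were 10 of 12 genes of goblet granules and membranes. In single libraries the genes called higher were 10.3% of 10638 in Bud, 7.28% of 10864 in het and 8.67% of 10699 in WT, and those called lower 10.6%, 8.80% and 7.33%. There the median log2 ratio of the transcription factors was 2.39 in Bud, 2.07 in het and 2.51 in WT, beside -0.09, -0.10 and -0.06 over all measured genes.

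Atoh1, the master factor of the secretory lineage, stood at 181 CPM in Bud, 115 CPM in het and 125 CPM in WT Tff3-rich wells, against 5.49, 2.93 and 5.03 CPM in the other wells. It was thus 33.0-fold higher in Bud, 39.2-fold in het (19.9 to 83.0) and 24.9-fold in WT (13.7 to 46.4). Spdef, the Ets factor of goblet and Paneth maturation, stood at 155 CPM in Bud, 78.9 CPM in het and 78.1 CPM in WT, against 1.05, 1.47 and 0.529 CPM. Klf4 was 10.3-fold higher in Bud (7.29 to 14.7), 15.3-fold in het (11.2 to 20.9) and 12.9-fold in WT (8.81 to 18.8), although 54.5% of its WT UMIs came from 1 well. Creb3l1, a membrane-bound factor that adapts the secretory pathway to load, stood at 522 CPM in Bud, 819 CPM in het and 316 CPM in WT, which was 8.12-fold, 10.4-fold and 6.68-fold above the other wells. The ratios of Foxa1, Foxa2 and Foxa3, winged-helix factors of secretory cells, lay between 1.88 and 4.37. Xbp1, the effector of the unfolded protein response, had ratios of 2.26 in Bud, 1.63 in het and 1.58 in WT.

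Genes of granule formation and mucus handling followed. Ern2, the goblet-specific IRE1β stress sensor, stood at 152 CPM in Bud, 161 CPM in het and 105 CPM in WT, which was 12.6-fold, 132-fold (52.8 to 424) and 44.3-fold (20.2 to 107) above the other wells. Bcas1 was 107-fold higher in Bud, 86.1-fold in het and 32.5-fold in WT, with 57.1% of its Bud and 90.9% of its WT UMIs in 1 well. The Rab15 effector gene Rep15 was 96.8-fold, 58.3-fold and 36.9-fold higher. Sytl2, a synaptotagmin-like protein of granule docking, stood at 133 CPM in Bud, 98.7 CPM in het and 74.2 CPM in WT, and in the other wells at 0.523, 0.489 and 0 CPM. Of the other secreted goblet products, 5 of 8 were higher in all 3 libraries, Klk1, Tpsg1, Ccl9, Muc13 and Guca2a. Guca2a, which encodes the guanylin peptide that opens fluid secretion, stood at 144 CPM in Bud, 441 CPM in het and 195 CPM in WT, against 0.785, 1.96 and 2.38 CPM. The chemokine gene Ccl9 stood at 195 CPM in Bud, 210.5 CPM in het and 195 CPM in WT, against 4.45, 3.67 and 3.70 CPM in the other wells. Clca1, a major mucus protein in mature goblet cells, was not among them: it was found in 2.90% of Bud, 15.4% of het and 11.8% of WT Tff3-rich wells, and in 22.1%, 27.2% and 24.3% of the deeper other wells.

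The folding and glycosylation machinery was higher in part. Of 20 measured genes of protein folding in the endoplasmic reticulum, 8 were higher in all 3 libraries, among them Txndc5 and Qsox1, both of which handle disulfide bonds. Txndc5 stood at 752 CPM in Bud, 572 CPM in het and 500.1 CPM in WT, against 90.2, 72.8 and 92.3 CPM, and Qsox1 was 6.43-fold, 8.97-fold and 5.52-fold higher. Of 20 genes of translocation and traffic 5 were higher (Sec61b, Tmed3, Tmed9, Kdelr2 and Kdelr3), and of 16 mucin glycosylation genes 7. The O-glycan branching enzyme gene Gcnt3 was 4.56-fold higher in Bud, 3.39-fold in het and 5.23-fold in WT. No gene of these 3 lists was lower in all 3 libraries. Among the 15 genes with the largest ratios outside the rule stood several not on these lists. Bhlha15, a transcription factor of secretory cell architecture also called Mist1, stood at 88.0 CPM in Bud, 141 CPM in het and 109 CPM in WT, against 3.40, 5.62 and 5.03 CPM. The secreted ribonuclease gene Rnase4 stood at 799.6 CPM in Bud, 872 CPM in het and 883 CPM in WT, against 92.3, 111 and 137 CPM, and Rnase1 at 464 CPM in Bud, 224 CPM in het and 254 CPM in WT, against 17.8, 8.80 and 20.9 CPM.

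**Figure D2:**
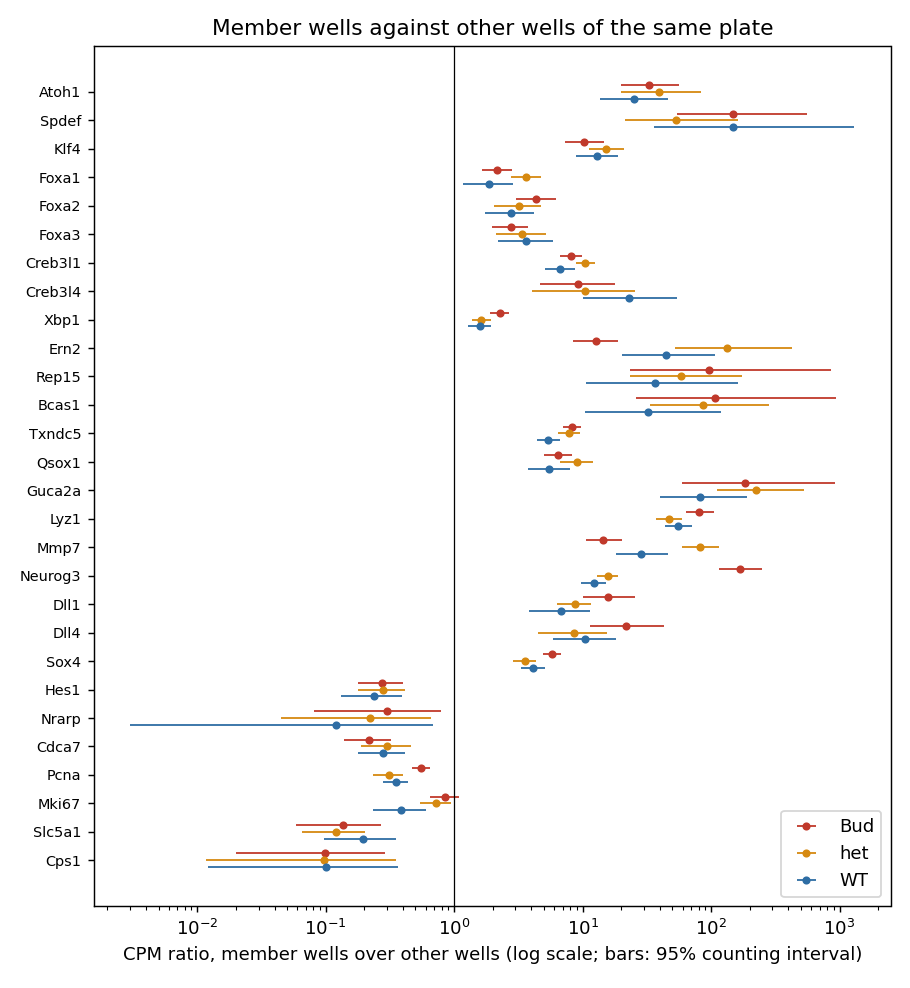
CPM ratio of Tff3-rich (member) wells over the other wells of the same library (horizontal log axis) for 28 genes in Bud, het and WT; points are ratios and bars their 95% counting intervals. Goblet factors, Lyz1 and Neurog3 lie to the right of 1 in every library, and Hes1, Nrarp, Cdca7 and Pcna to the left.

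Products of Paneth cells were high in the same wells. Lyz1 stood at 1546 CPM in Bud, 1128 CPM in het and 1324 CPM in WT Tff3-rich wells. Set against the other wells it was 81.0-fold higher in Bud (63.4 to 105), 47.1-fold in het (37.5 to 59.6) and 55.6-fold in WT. The matrix protease gene Mmp7, which activates defensins in the mouse, stood at 259 CPM in Bud, 901 CPM in het and 227 CPM in WT, ratios of 14.5, 81.9 and 28.5 over the other wells. Ang4, an antimicrobial ribonuclease, and Itln1, a sugar-binding intelectin, were also higher in all 3 libraries, so that 4 of 6 measured Paneth genes were. In Bud and het, however, Ang4 lay mainly in wells with Neurog3 and not in those with Lyz1, as given further on. Defensin reads were few: Defa24 had 23 UMIs in Bud, 51 in het and 0 in WT Tff3-rich wells, and reads of near-identical defensin genes cannot be told apart here. The summed Paneth list came to 2975 CPM in Bud, 5772 CPM in het and 1981 CPM in WT, against 82.1, 129 and 114 CPM in the other wells.

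Genes of early secretory and endocrine progenitors were high as well. Neurog3 stood at 1354 CPM in Bud, 799 CPM in het and 586 CPM in WT, against 8.11, 50.8 and 48.2 CPM. Without Tff3 in the rule the WT difference was gone, with a log2 ratio of 0.01 against 3.36, while it was 2.75 in Bud and 3.36 in het. Of wells with 3 or more Neurog3 UMIs, 24 of 25 in Bud were Tff3-rich (96.0%), 9 of 17 in het (52.9%) and 7 of 17 in WT (41.2%). The Notch ligand genes Dll1 and Dll4, Sox4 and the corepressor gene Cbfa2t3 were higher in all 3 libraries too, making 5 of 6 measured genes of this list. Cbfa2t3 stood at 410.5 CPM in Bud, 349 CPM in het and 262 CPM in WT, against 7.85, 16.6 and 21.4 CPM. In the opposite direction, the Notch target Hes1, a repressor of Atoh1, stood at 69.3 CPM in Bud, 78.9 CPM in het and 58.6 CPM in WT, against 254, 282 and 248 CPM, and Nrarp, another Notch target, was lower in all 3 libraries. Hormone genes rested on few wells: 99.6% of the 1337 Ghrl (ghrelin) UMIs in het came from 1 well, while Chga, a granin of mature endocrine cells, had no UMI in Bud or het Tff3-rich wells and 17 in WT.

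Most S phase genes were lower, and some stem cell and absorptive genes. In all 3 libraries 13 of 16 measured S phase genes were lower, with Pcna, the sliding clamp of DNA replication, at 402 CPM in Bud, 184 CPM in het and 313 CPM in WT, against 727, 597 and 890.1 CPM. None of 16 genes of G2 and M phase was lower in all 3, and the proliferation marker Mki67 had ratios of 0.852 in Bud (0.648 to 1.10), 0.722 in het (0.546 to 0.938) and 0.385 in WT (0.234 to 0.599). Of 15 stem cell genes, Ascl2, Smoc2, Cdca7 and Slc12a2 were lower in all 3, while Prom1 was higher in Bud and het. Lgr5, the receptor that marks crypt stem cells, was still read at 199.9 CPM in Bud, 201 CPM in het and 117 CPM in WT, against 321, 300.4 and 289 CPM. Of 12 absorptive genes 6 were lower in all 3 libraries, while Anpep was higher in Bud and Ace in WT. Among the 6 was the glucose transporter gene Slc5a1, 7.36-fold lower in Bud, 8.36-fold in het and 5.09-fold in WT. The urea cycle gene Cps1 was 10.2-fold lower in Bud, 10.4-fold in het and 9.96-fold in WT, and Otc 8.63-fold, 7.44-fold and 9.05-fold. The microsomal glutathione transferase gene Mgst1 was 6.61-fold, 7.33-fold and 6.40-fold lower, and the retinaldehyde dehydrogenase gene Aldh1a1 3.76-fold, 8.54-fold and 5.49-fold.

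Few wells carried both Lyz1 and Neurog3. With 3 UMIs as the mark, Lyz1 without Neurog3 was found in 22 Bud, 16 het and 14 WT Tff3-rich wells, Neurog3 without Lyz1 in 19 Bud, 8 het and 5 WT wells, both in 5, 1 and 2 wells, and neither in 23, 14 and 13 wells. Lyz1 reached the mark in 39.1% of Tff3-rich wells in Bud, 43.6% in het and 47.1% in WT. Neurog3 did in 34.8%, 23.1% and 20.6%, and both did in 7.25%, 2.56% and 5.88%. Whether both together were rarer than the single shares would give was not tested. The split depends on depth: median UMIs were 4114 in Bud, 6329 in het and 10086 in WT for Lyz1 wells, 3161, 4920.5 and 1976 for Neurog3 wells, and 1875, 10044 and 2109 for wells with neither. At a matched depth of 1000 UMIs, Lyz1 was found in 43.5% of Bud, 35.9% of het and 47.1% of WT Tff3-rich wells, against 1.20%, 2.24% and 2.24% of other wells (unthinned, 65.2%, 53.8% and 67.6%, against 11.6%, 13.8% and 11.6%). Neurog3 was found in 42.0%, 20.5% and 26.5% at that depth, against 0.803%, 2.56% and 3.73% (unthinned, 46.4%, 28.2% and 29.4%, against 5.22%, 6.73% and 6.72%).

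**Figure D3:**
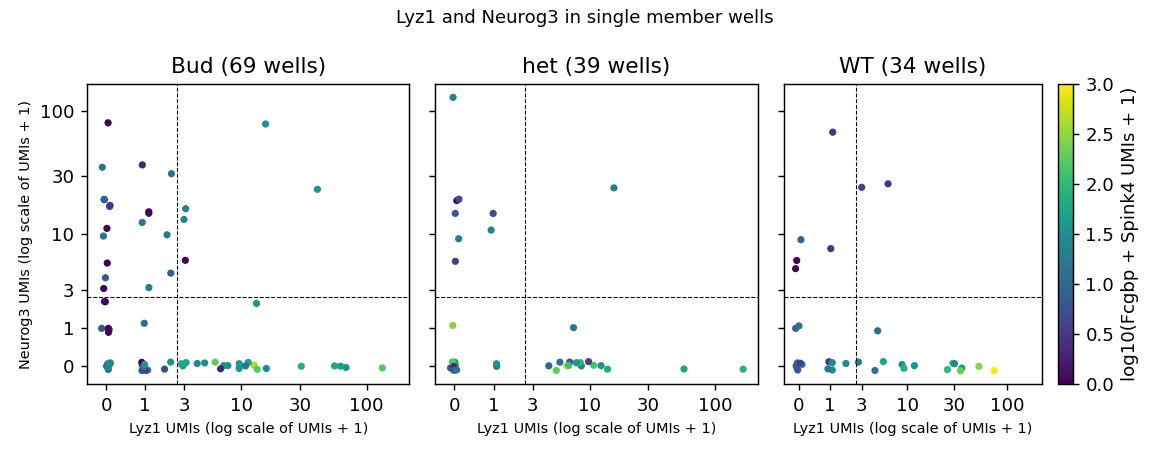
UMIs of Lyz1 (horizontal) and Neurog3 (vertical) in every Tff3-rich (member) well, on axes scaled as log2 of UMIs plus 1 with a small random shift, in panels for Bud, het and WT. Dashed lines separate wells below 3 UMIs from those at 3 or more, and colour gives log10 of Fcgbp plus Spink4 UMIs plus 1; 5 Bud, 1 het and 2 WT wells lie above both lines.

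Of the 6 rule genes, Muc2, Spink4, Fcgbp, Agr2 and Zg16 were lower in Neurog3 wells than in Lyz1 wells of every library, and Tff3 was not. Of the goblet transcription factors 5 of 10 measured were lower in Bud and 1 higher (Foxa2), 3 of 8 lower in het and 3 of 9 lower in WT, with no other one higher. Of the granule and membrane genes 6 of 14 were lower in Bud, 4 of 11 in het and 1 of 14 in WT. The split was chosen after values of both genes were seen and is a description. Muc2 stood at 36.6 CPM in Neurog3 wells and 3210 CPM in Lyz1 wells of Bud, at 66.6 and 3537 CPM in het, and at 0 and 1641 CPM in WT, where 91.1% of the Lyz1-well UMIs in Bud, 79.2% in het and 84.9% in WT came from 1 well. Spink4 was spread more evenly, at most 28.6% of Lyz1-well UMIs in 1 well, and stood at 744 CPM in Neurog3 wells and 6866 CPM in Lyz1 wells of Bud, at 467 and 5874 CPM in het, and at 95.3 and 2467 CPM in WT. Fcgbp stood at 635 CPM in Neurog3 wells and 4815 CPM in Lyz1 wells of Bud, at 1177 and 8907 CPM in het, and at 429 and 9710 CPM in WT. The wells with neither mark held 916, 10907 and 1866 CPM of Fcgbp in Bud, het and WT, above the Lyz1 wells in het only. In 1 well lay 45.8% of the Lyz1-well Fcgbp UMIs in Bud, 59.7% in het and 52.1% in WT. Among het wells with neither mark 48.8% lay in 1 well, so the het order rests largely on single wells. Atoh1 had no UMI in the 19 Bud, 8 het and 5 WT Neurog3 wells, and stood at 328 CPM in Bud, 90.7 CPM in het and 191 CPM in WT Lyz1 wells. Atoh1 was called lower in Neurog3 wells in Bud and WT, where the WT interval reached a ratio of 0.981. In het it was too low for a call, with 9 UMIs in 3 Lyz1 wells. Creb3l1 and B4galnt2, a glycosyltransferase gene, were lower in Neurog3 than in Lyz1 wells in every library. For scale, 10.6% of 4099 genes measured in this contrast in Bud were lower in Neurog3 wells, 7.84% of 2869 in het and 4.33% of 3675 in WT, and 9.71%, 10.4% and 7.29% were higher.

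Tff3 (17:31125306-31129646, GRCm38) was higher in the Neurog3 wells of Bud, lower in those of WT and without a call in het. In Bud it stood at 26105 CPM in Neurog3 wells and 8923 CPM in Lyz1 wells, in het at 13374 and 17179 CPM, and in WT at 5577 and 10886 CPM. The highest Tff3 level of any of these sets was thus in the Neurog3 wells of Bud, spread over all 19 wells with at most 17.7% of the UMIs in 1 well. Kcnq1ot1 was also higher in the Neurog3 wells of Bud, at 8482 CPM against 4633 CPM in Lyz1 wells (ratio 1.83, 1.64 to 2.04). There 50.6% of its UMIs lay in 1 well. It stood at 2422 and 1844 CPM in het and at 1954 and 1653 CPM in WT, without a call in either. Bud wells with neither mark held more Kcnq1ot1, 14802 CPM, and less Tff3, 6489 CPM. The part of Kcnq1ot1 in the Tff3 level was not tested. In het 59.3% of the Tff3 UMIs of Neurog3 wells came from 1 of 8 wells. Sox4, a factor of early endocrine commitment, stood at 1428 CPM in Neurog3 wells and 219 CPM in Lyz1 wells of Bud, at 1377 and 161 CPM in het, and at 1287 and 203 CPM in WT. Pax4, an endocrine factor downstream of Neurog3, and Prom1 were also higher in Neurog3 wells in all 3 libraries. Reg4, a lectin of endocrine and deep crypt secretory cells, stood at 2563 CPM in Neurog3 wells and 876 CPM in Lyz1 wells of Bud, at 1244 and 403 CPM in het, and at 0 and 121 CPM in WT. Of the Neurog3-well Reg4 UMIs 59.5% in Bud and 87.5% in het came from 1 well. Ang4, of the Paneth list, stood at 1696 CPM in Neurog3 wells and 87.6 CPM in Lyz1 wells of Bud, and at 2044 and 181 CPM in het. In 1 well lay 71.9% of its Neurog3-well UMIs in Bud and 68.5% in het. In WT it had no call. Habp2 was also higher in the Neurog3 wells of Bud, with a ratio of 2.29. Mmp7 was lower there in Bud and het, and Itln1 was lower in every library.

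**Figure D4:**
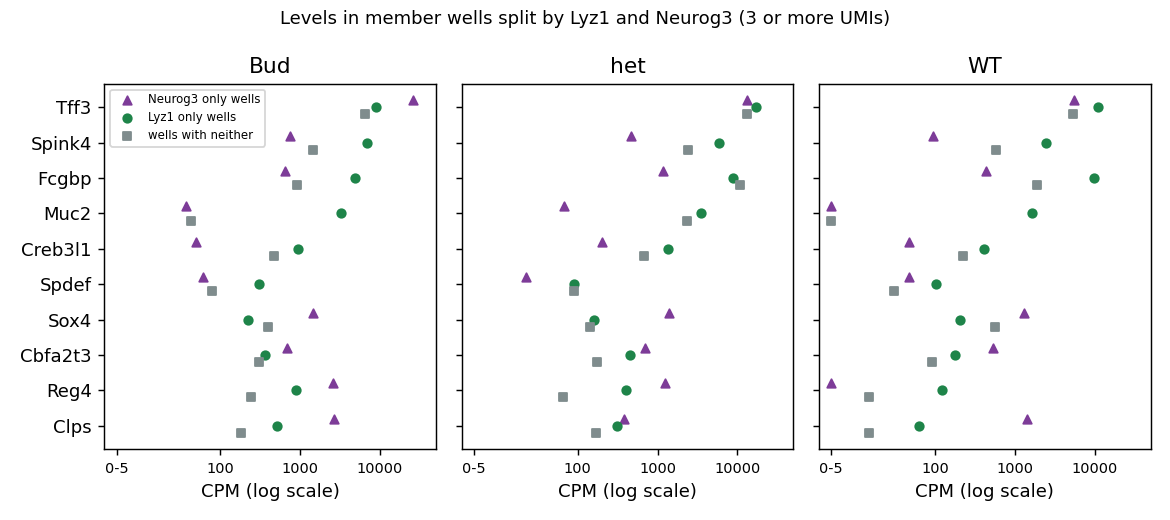
Level of 10 genes (horizontal log axis, CPM; levels up to 5 CPM are drawn at 5) in Tff3-rich (member) wells with Neurog3 only, Lyz1 only or neither, in panels for Bud, het and WT. Muc2, Fcgbp and Spink4 are lower in Neurog3 than in Lyz1 wells in each panel, and Tff3 is higher in Neurog3 wells in Bud, at 26105 CPM against 8923 CPM.

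Between genotypes, the largest differences of Bud from WT Tff3-rich wells included genes read in Neurog3 wells, Ttyh1 and Cxcl13. Of 7573 measured genes, 325 were higher in Bud (4.29%) and 615 lower (8.12%), beside 5.42% and 8.92% of 11338 genes in the other wells. Bud and het are both set against the same WT wells, so their values are given side by side only. Ttyh1 (7:4119408-4136708, GRCm38), a chloride channel-like membrane protein, had 339 CPM in Bud from 23 wells, 19.7 CPM in het and 0 in WT, which is at least 28.9-fold higher in Bud than in WT against a floor of 3 UMIs. In the other wells it stood at 1.83, 3.42 and 3.44 CPM. The Neurog3 wells of Bud held 84 of its 127 UMIs, in 11 of 19 wells. Cxcl13 (5:95956951-95961068, GRCm38), a B cell chemokine, had 171 CPM in 16 Bud wells and no UMI in het or WT, at least 14.6-fold higher in Bud than in WT. In the other wells it stood at 0.262, 0.244 and 0.265 CPM, and 50 of its 64 UMIs lay in Bud Neurog3 wells.

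Further genes higher in Bud included Reg4 at 1023 CPM in Bud, 349 CPM in het and 78.1 CPM in WT, 13.1-fold above WT (8.36 to 21.7). Reg4 was also called higher in Bud than in WT among the other wells. The serpin genes Serpina1a, Serpina1d and Serpina1e, near-identical copies whose reads may be shared, were higher too. Serpina1a stood at 155 CPM in Bud, 6.58 CPM in het and 0 in WT. Clps, which encodes pancreatic colipase, stood at 1098 CPM in Bud and 168 CPM in WT, 6.54-fold higher in Bud than in WT (4.77 to 9.17). Habp2, a gene of the Paneth list, was 13.6-fold higher (4.45 to 68.0), beside 2.14 in the other wells. The immediate early gene Nr4a1 was at least 6.82-fold higher and 8.89-fold in the other wells. The phospholipase gene Pla2g2a was 18.3-fold higher in Bud than in WT (9.50 to 40.6) but 188-fold higher in the other wells, and Erdr1 was 32.1-fold higher and 59.6-fold in the other wells, so both differed in the other wells too. Unlike Ttyh1, Pla2g2a lay in the Lyz1 wells, with 1357 CPM in Bud, 333 CPM in het and 50.9 CPM in WT.

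Among the goblet lists, 4 of 10 transcription factors were higher in Bud than in WT, Spdef, Foxa1, Creb3l1 and Gfi1, and none lower, with a median log2 ratio of 0.55 beside -0.06 over all genes. Over all measured genes 4.29% were higher. In the other wells 2 of 8 transcription factors were higher in Bud, Foxa1 and Foxa3, and none lower. Spdef had a ratio of 1.98 (1.17 to 3.47) and Gfi1 of 4.43 (1.54 to 17.5). The Spdef call was lost at the 0.6% rule, with a log2 ratio of 0.65 against 0.90. Spink4 was 1.93-fold higher in Bud than in WT (1.73 to 2.16) beside 0.948 in the other wells. Fcgbp was 2.80-fold lower in Bud than in WT and also lower in the other wells, with a ratio of 0.642. Agr2 was 1.56-fold lower in the Tff3-rich wells, where its log2 ratio was 0.12 without the well richest in rule genes of each library, and 3.06-fold higher in the other wells. Tff3 had a ratio of 1.43, short of the 1.5 used for a call, and Muc2 of 1.18 (1.01 to 1.38) that rested on 1 well in each library. These rule-gene ratios compare wells chosen by the same genes and are descriptions. Neurog3 was 2.31-fold higher in the Tff3-rich wells of Bud than in those of WT (1.92 to 2.79) and lower in the other wells, with a ratio of 0.168. The rule bears on both values, since wells enter mainly through Tff3 and 24 of 25 Neurog3 wells of Bud entered against 7 of 17 of WT, so they are a description. Without Tff3 in the rule the log2 ratio in the chosen wells was 2.96, against 1.19 with it. Of 18 listed endocrine genes 5 were measured, of which 3 were lower in Bud than in WT (Chga, Fev and Pax4) and 1 higher (Ghrl). The summed list stood higher in Bud, at 808 CPM against 344 CPM in WT. In Bud only 3 of the 18 genes had a UMI, and the sum was mainly Ghrl. In the Neurog3 wells of Bud Ghrl stood at 3356 CPM, beside 159 CPM of Pax4. Of the WT Chga UMIs 88.2% lay in 1 well, whose share of rule genes was 0.377%.

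Set against het, 549 of 7704 measured genes were higher in the Tff3-rich wells of Bud (7.13%) and 579 lower (7.52%), beside 8.70% and 12.2% of 11506 genes in the other wells. Ttyh1 was 17.2-fold higher in Bud than in het (7.67 to 47.6), Cxcl13 at least 17.3-fold and Neurog3 1.69-fold (1.45 to 1.98). Spink4 had a ratio of 1.01 (0.928 to 1.10), and Fcgbp was 3.73-fold lower in Bud (3.45 to 4.03). The Paneth products Itln1 and Mmp7 were 7.47-fold and 3.49-fold lower in Bud than in het.

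Of the 615 genes lower in Bud than in WT, 116 were also lower in the other wells and 7 higher there. Of the 325 higher in Bud, 74 were also higher in the other wells and 9 lower. Ifitm3, an interferon-induced membrane protein gene, had no UMI in Bud or het Tff3-rich wells and 195 CPM in WT, and in the other wells it stood at 0.785 CPM in Bud, 0.733 CPM in het and 246 CPM in WT. The absorptive gene Fabp1 stood at 0 CPM in Bud, 32.9 CPM in het and 50.8 CPM in WT, and the alcohol dehydrogenase gene Adh1 was 10.0-fold lower in Bud than in WT, each also lower in Bud among the other wells. Insm1, a factor of endocrine differentiation, had 0 UMIs in Bud, 7 in het and 29 in WT. Of the list of Reg lectins and defence genes, Dmbt1, a scavenger receptor-like mucosal protein, stood at 5.33 CPM in Bud, 694 CPM in het and 465 CPM in WT, although 91.6% of the WT UMIs came from 1 well.

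Het Tff3-rich wells were higher than WT in most measured Paneth genes. Of 7213 measured genes 320 were higher in het (4.44%) and 529 lower (7.33%), beside 8.41% and 8.65% of 11518 genes in the other wells. Among 8 measured Paneth genes 7 were higher and none lower, with a median log2 ratio of 1.96 beside -0.06 over all genes. In the other wells of het 2 of 6 were higher. The Tff3-rich wells of Bud shared part of this. Of 7 measured Paneth genes, 4 were higher in Bud than in WT (Ang4, Itln1, Defa24 and Habp2) and 1 lower (Pnliprp2), with a median log2 ratio of 1.02. In the other wells of Bud 4 of 6 were higher and 1 lower. Of 9 measured enteroendocrine genes 6 were higher in het and 3 lower (Chga, Fev and Pax4), with a median log2 ratio of 2.65, and 1 het well held 99.6% of the Ghrl, 98.1% of the Chgb and 97.9% of the Cck UMIs. Itln1 stood at 2746 CPM in het, 25 of 39 wells carrying it, against 176 CPM in WT, a ratio of 15.6 (11.6 to 21.6), though 68.5% of its UMIs lay in 1 well. Mmp7 stood at 901 CPM in het and 227 CPM in WT, a ratio of 3.98 (2.99 to 5.38), with at most 16.1% in 1 het well. Defa24 was at least 14.3-fold higher in het. Sct, the secretin gene, stood at 62.5 CPM in 13 het wells and 3.91 CPM in WT, beside a ratio of 0.672 in the other wells. The lectin-like gene Clec2h stood at 171 CPM in het and 0 in WT, at least 14.6-fold higher, and 4.53-fold in the other wells. Lyz1 itself had a ratio of 0.852 (0.731 to 0.993). Muc2 was 2.32-fold, Spink4 1.91-fold and Tff3 1.67-fold higher in het than in WT. Without the well of each library with the most rule-gene UMIs, the log2 ratio of Muc2 was 2.95, against 1.20 with it. The wells left out were unlike. In WT it was the well with the highest share of rule genes, with 219 UMIs of Muc2. In het it was another well, with 318, and the highest-share well stayed in with 278. The value of 2.95 thus still rests largely on 1 het well. At the 0.6% rule the calls of Spink4 and Tff3 were lost, with log2 ratios of 0.51 and 0.46, and likewise without Tff3 in the rule, with 0.47 and 0.44. The guanylin gene Guca2a was 2.26-fold higher (1.62 to 3.19). The early response gene Egr1 was 7.74-fold higher in the Tff3-rich wells and 3.72-fold in the others, and of 9 measured genes of dissociation stress 5 were higher in het and none lower, and 2 were higher and 1 lower (Junb) in Bud. In the other wells 6 of 12 were higher in het and 5 of 11 in Bud. The S phase genes Mcm2, Mcm5, Pcna and Rrm2 were lower in het than in WT.

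**Figure D5:**
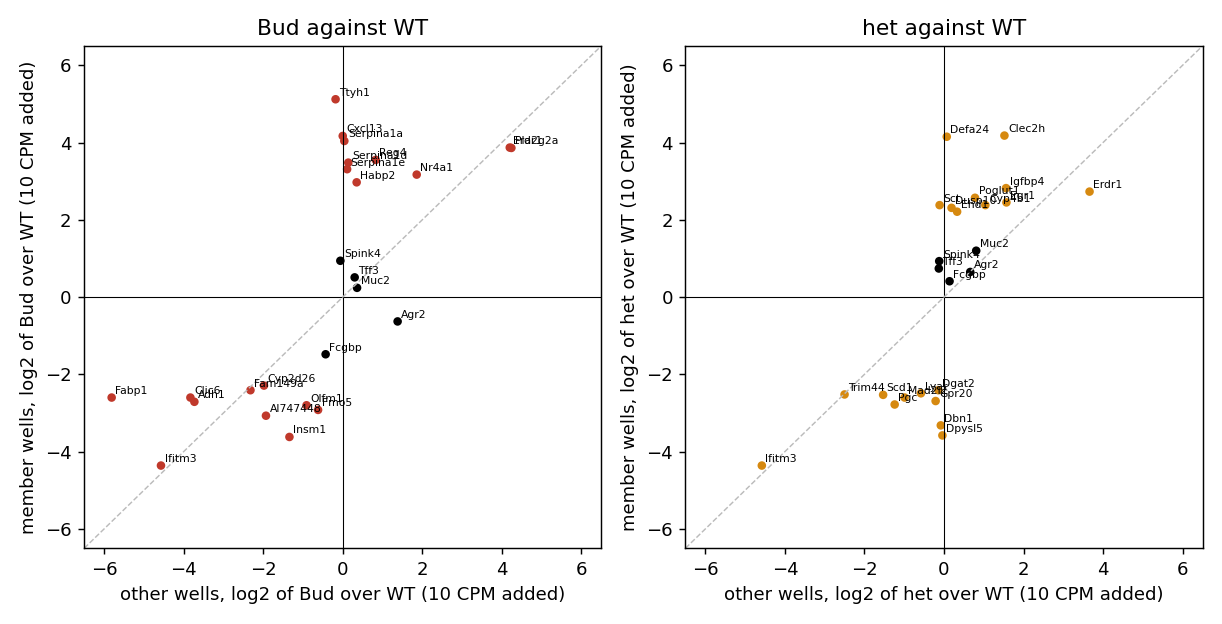
Log2 ratio of Bud over WT (left) and het over WT (right), with 10 CPM added to both values, in Tff3-rich (member) wells (vertical) against the other wells (horizontal); black points are the rule genes except Zg16 and coloured points the 10 genes furthest each way. Ttyh1, Cxcl13 and Serpina1a differ in Bud in Tff3-rich wells with little difference in other wells, whereas Ifitm3 and Erdr1 lie near the dashed line of equal ratios. Nearly all Neurog3 wells of Bud met the rule, so the other wells are no control for genes of such wells.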

How the data were processed

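Single cells sorted into 384-well plates were sequenced by SORT-seq, 1 plate per genotype. The deposited UMI tables hold raw counts of genes by wells, with no normalization by the authors, and gave every value here. The deposited transcript tables hold estimated counts, which were rounded and used only as an alternative. Per the submitters' processing notes, the tools included Seurat 4.1.0, STAR 2.6.1 and featureCounts 1.5.2, and the build was GRCm38. How strand and multiply matching reads were handled is not stated, so near-identical or overlapping genes are uncertain.

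Spike-in (ERCC) rows, 4.68% to 5.15% of UMIs in these 3 libraries, were dropped, and wells with at least 1000 UMIs kept. UMIs were summed over a set of wells and divided by the set's total to give CPM. Ratios carry exact conditional binomial, and shares exact Clopper-Pearson, 95% intervals (Python 3.11.15, scipy 1.17.1), which cover counting error only. The ratio code was tested on simulated data. Log2 values have 10 CPM added to both sides, which understates differences of low genes. Bounds against a set with no UMI use a floor of 3 UMIs over that set.

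Genes were named by a rule: the rule genes and Stk11; for Tff3-rich over other wells, the 15 largest and 10 smallest ratios among genes detected in 20% of wells of the higher set in each library; between genotypes, the 10 furthest each way detected in 10% and at least 3 wells; up to 4 genes of each of 24 lists at 20 CPM or more; and 16 markers. No gene with over 50% of UMIs in 1 well, and no ribosomal, Gm, Rik or Rn45s gene, was taken between sets. Other genes named, Clps between genotypes and those of the Lyz1 and Neurog3 split among them, were chosen after their values were seen. The members, lists and rules were chosen with earlier results of these data known.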

Additional observations from a re-analysis of the deposited data

Results flagged for a closer look

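In the ratio of Tff3-rich over other wells, 52 genes were called in opposite directions in different libraries, and none of these differences was itself tested. The 8 that are named or on a list follow. The quality mark Kcnq1ot1 was another of the 52, with a ratio of 1.95 in Bud and 0.513 in het. Chga, a granin of endocrine cells, had a ratio of 0 in het and 6.78 in WT. Chgb, another granin, had 11.4 in het and 0.269 in WT. Tph1, the serotonin synthesis gene, had 71.8 in het and 0 in WT. The het values of Chgb and Tph1 came almost wholly from 1 well, which held 98.1% of the Chgb UMIs and all those of Tph1, and 88.2% of the WT Chga UMIs lay in 1 well. Reg1, a Reg family lectin, had 0.127 in Bud, 13.5 in het and 0 in WT, and Reg3g, an antimicrobial lectin, had 0.247 in Bud and 3.26 in het. Dmbt1 had 0.0538 in Bud and 1.5 in WT, where 91.6% of UMIs came from 1 well. Id1, a target of BMP signalling, had 0.444 in het and 1.65 in WT, and Poglut1, which glycosylates Notch receptors, 0.179 in Bud and 2.06 in het.

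In the library marked Cys, outside these comparisons, Agr2 stood at 681 CPM against 101 CPM in the WT library, a ratio of 6.73 (6.07 to 7.48), although only 20 of its 359 kept wells (5.57%) met the rule. Of its 3391 Agr2 UMIs, 2849 lay in wells that did not meet the rule. The remaining rule genes were lower in Cys than in WT, with ratios of 0.555 for Tff3, 0.0887 for Muc2, 0.644 for Spink4, 0.0414 for Fcgbp and 0.0352 for Zg16.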

How the results depend on the processing

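No paired analysis was possible because each genotype was 1 library. Leaving out a replicate was not possible for the same reason, and the spread between plates is unknown. Causes of the changes below were not tested. With at least 3000 UMIs per well the Bud share was 13.4%. Equal weight for every well gave 459 genes higher and 1136 lower in all 3 libraries. It gave 1726 higher and 2190 lower in Bud than in WT, and 1643 higher and 2053 lower in het than in WT. These equal-weight calls did not require a counting interval that excludes 1, so their rule was looser than that of the reported counts. The effects of the weighting and of the looser rule on these counts were not separated. Requiring 50 UMIs per gene gave 156 and 265 in Bud over WT, and 145 and 221 in het over WT, since fewer genes were measured. With het in place of WT, 549 genes were higher in Bud, and log2 ratios turned to -1.32 for Defa24, -0.00 for Lgr5 and -0.20 for Mki67. Without Tff3 in the rule, an alternative added after seeing the data, the share was 12.6% in Bud and 6.62% in WT, 367 genes were lower in Bud than in WT, and Neurog3 in WT Tff3-rich over other wells had a log2 ratio of 0.01 against 3.36 as reported. With Neurog3 wells moved out, also added afterwards, the Bud share was 14.2%, and 179 genes were higher and 147 lower in all 3 libraries. By that construction Neurog3 ratios turned to -1.43 in Bud, -2.73 in het and -2.04 in WT. The WT Chga ratio turned to -0.06 at a 0.6% rule, -1.25 without Tff3 and -1.27 without Neurog3 wells. Without the well of each library with the most rule-gene UMIs, Agr2 in Bud over WT was 0.12, and Tff3 was 0.92 and then called higher. Zg16 in Bud Tff3-rich over other wells was then 0.04 against 4.94 as reported. Over all settings, 1810 of 2151 gene values stayed within their own counting interval, 331 moved out of it and 10 changed direction. Of the 1810, 143 came from the setting of 50 UMIs per gene, which cannot change a ratio. Of the list counts, 1509 of 1776 stayed within 1.5 times. The counts over all genes given above are not among these. Depth limits low genes most: Stk11 had at most 5 UMIs in any set of Tff3-rich wells.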

Other observations

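No well of the fetal library met the rule among 371 kept wells, where the largest share of rule genes was 0.115%. A count of 0 allows up to 0.809% of such wells.

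Of 13 measured genes of fetal and regenerative epithelium, Cldn4, Krt7 and Ly6e were higher in Tff3-rich than in other wells of all 3 libraries. None was lower in all 3. Over all measured genes 2.82% were higher in all 3. In Bud alone 5 of 14 were higher and 4 lower (Anxa1, Anxa2, Il33 and Emp1). In het alone 5 of 13 were higher and 1 lower (Anxa1), and in WT 6 of 13 were higher and 0 lower. Ly6e stood at 3609 CPM in Bud, 1506 CPM in het and 2008 CPM in WT Tff3-rich wells, and Krt7, an epithelial keratin gene, stood at 1538 CPM in Neurog3 wells and 773 CPM in Lyz1 wells of Bud. Of 12 CREB target genes and 11 dissociation stress genes none was higher or lower in all 3. The tuft cell list summed to 29.3 CPM in Bud, 16.4 CPM in het and 23.4 CPM in WT Tff3-rich wells, and its marker Dclk1 had no UMI there.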
